A study of Mus musculus with 88 samples.

Results

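The genes of the mouse mitochondrial genome were examined in 3 brain regions of stressed and unstressed mice. They were found by symbol: every gene whose GRCm38 symbol starts with mt- was taken, which gave 37 genes, namely 13 protein genes, 22 tRNA genes and 2 rRNA genes. The 3 region tables together list 48811 genes. All 37 mitochondrial genes are among the 48795 genes of the table of the bed nucleus of the stria terminalis (BNST), 23 are among the 18946 of the medial prefrontal cortex (mPFC) and 24 are among the 19559 of the ventral hippocampus (vHPC). The mPFC and vHPC tables had been filtered on low values by the authors, so the absence of a tRNA gene there is no measurement.

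Mitochondrial DNA is a small circle that is copied in several copies per mitochondrion and is transcribed from both strands into long precursor RNAs. The precursors are cut at the tRNAs that lie between the other genes, which releases 2 rRNAs of the mitochondrial ribosome and mRNAs for core subunits of the respiratory chain and ATP synthase. All other proteins of the organelle, including its polymerase, RNA-processing enzymes and ribosomal proteins, are encoded in the nucleus. Brain tissue depends on oxidative phosphorylation, and mitochondrial transcripts are abundant in neurons and glia.

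The mice were males of the strains labelled C57BL/6Crl (B6) and DBA/2Crl (D2), aged 8 weeks at dissection. They had either gone through chronic social defeat stress (CSDS), in which a mouse meets aggressive CD1 males day after day, or were unstressed controls of the same strain. Defeated mice were split by a later social avoidance test into resilient mice, which approached a CD1 male like controls, and susceptible mice, which avoided it. No group carried a transgene or drug. Each library came from 1 region of 1 mouse. The mPFC had 6 control, 6 resilient and 6 susceptible B6 mice with 6 control and 8 susceptible D2 mice. For the BNST there were 5, 5 and 5 B6 mice, and of D2 mice 5 controls, 3 resilient and 5 susceptible. The vHPC had 6 control, 8 resilient and 3 susceptible B6 mice with 6 control and 5 susceptible D2 mice. P-values therefore measure the spread between mice of a group, and in bulk tissue fewer cells of a type and less RNA per cell cannot be told apart.

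Region and library kit cannot be told apart either. mPFC and vHPC RNA was depleted of rRNA with Ribo-Zero Gold and made into ScriptSeq and Nextera libraries, while BNST RNA went through Ovation Universal libraries with InDA-C cleavage of rRNA inserts. Regions are therefore set side by side with no test between them. Each BNST library held between 11825757 and 25793910 counts, with a median of 15273698. Values of the mPFC and vHPC are log2 CPM (CPM being a count scaled to the total of its library), so the depth cannot be read from them. The study lists the analyzed reads of its samples, which are not given here. Markers of the labelled regions were present: cortical markers in the mPFC, Zbtb20 (median 760.4 CPM) in the vHPC and Gad1 (450.2 CPM) in the BNST, although Zbtb20 was also at 803 CPM in the BNST, Gad1 at 265 CPM in the vHPC, and the cortical markers summed higher in the vHPC (742 to 794 CPM in B6 controls) than in the mPFC (459 to 637 CPM). Summed markers of striatal neurons ranged from 420.2 to 3059 CPM among the BNST libraries.

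A stretch of chromosome 1 repeats part of the mitochondrial genome. In the GRCm38 annotation, 7 unprocessed pseudogenes lie side by side on the minus strand at chr1:24611535-24616197, over 4663 bases. They match 4662 bases at chrM:6381-11042, from within mt-Co1 to within mt-Nd4. Over the annotated pseudogenes, 5 of the 7 were identical to the mitochondrial gene. The pseudogene Gm29216 matched mt-Co1 at 486 of 492 bases, with its differences at the edge of the stretch. Gm28438 matched mt-Nd3, which codes for a subunit of complex I, at 344 of 345 bases. This substitution (T3C, counted from 1 at the first base of mt-Nd3, with the mitochondrial base first) lies at position 9461 of the mitochondrial genome. The first 60 bases of both, from the GENCODE transcripts of GRCm38, are shown because the reads of mt-Nd3 and of its copy differ in the annotated sequence only here, and the differing base is in capitals. The mitochondrial sequence lies at chrM:9459-9518 on the plus strand and the copy at chr1:24613060-24613119 on the minus strand.
mt-Nd3: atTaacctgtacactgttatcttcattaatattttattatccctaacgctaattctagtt
Gm28438: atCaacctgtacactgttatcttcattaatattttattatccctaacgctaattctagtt
One more difference, in length, lies between matched parts: 73 bases separate those of mt-Nd3 and mt-Nd4l, and 74 bases separate their copies. This interval holds the tRNA gene mt-Tr, and its sequence was not compared.

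Genes that lie wholly inside this stretch had almost no counts in the BNST. There, where every gene is listed, the 11 members inside it (mt-Ts1, mt-Td, mt-Co2, mt-Tk, mt-Atp8, mt-Atp6, mt-Co3, mt-Tg, mt-Nd3, mt-Tr and mt-Nd4l) drew 69 reads in all 28 libraries together. Among these 11, 4 had no read, none had more than 17 and no gene had more than 4 in a library. The 7 protein genes that reach outside the stretch drew 22614940 reads, between 618677 for mt-Nd6 and 6413383 for mt-Cytb. Beyond the stretch, mt-Th and mt-Ts2 also drew only 1 read between them. The subunits of cytochrome c oxidase (mt-Co2, mt-Co3) and ATP synthase (mt-Atp6, mt-Atp8) can hardly be measured by the BNST counts, and a count near 0 is no sign of low expression. How reads with more than 1 match were counted is not given in the sources used here, and its part in these counts was not tested.

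An rRNA had the highest median level per length in each region. RNA of each region had been depleted of rRNA, so the rRNA values are those left after that step. In the mPFC, mt-Rnr2, the large-subunit rRNA, had a median of 7074 CPM per kb over the 32 libraries. It was followed by mt-Co1 (2991), the catalytic subunit of cytochrome c oxidase, mt-Nd1 (1495), a complex I subunit, and mt-Cytb (1057), the complex III subunit. The small-subunit rRNA mt-Rnr1 came sixth there, with a median of 738 CPM per kb and a range of 502 to 1314. In the BNST the order at the top was turned: mt-Rnr1 had a median of 78347 CPM per kb and mt-Rnr2 one of 33340, ahead of mt-Cytb (10632), mt-Nd2 (7431) and mt-Nd1 (5672). The vHPC had mt-Rnr2 (10336) and mt-Rnr1 (3450) ahead of mt-Co1 (2137). Neighbours in these orders often overlapped over libraries: mt-Nd2, with a range of 519 to 1110 in the mPFC, covered much of the mt-Rnr1 range.

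mt-Nd6, a complex I subunit and the 1 protein gene coded on the strand opposite to the others, ranked behind the other protein genes outside the stretch in the mPFC (median 328 CPM per kb) and the vHPC (231). In the BNST its median was 2260 CPM per kb, between mt-Co1 (3946) and mt-Nd4 (1920). The strand setting of the counting is not given in the sources used here. Reads of mt-Nd6 and of the tRNA genes on its strand therefore cannot be told from transcripts of the other strand.

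The mitochondrial share of all counts was higher in every BNST library than in any library of the other regions, whose ranges overlapped. It ranged from 6.72% to 31.9% among BNST libraries (median 18.3%). mPFC libraries had 1.63% to 3.1% (median 2.16%) and vHPC libraries 1.05% to 4.66% (median 2.48%), where each value is the sum of the listed genes' CPM. rRNA was 1.21 times the protein-gene sum in the median library of the mPFC, 2.42 times in that of the BNST and 3.404 times in that of the vHPC. The vHPC ratio alone ranged from 0.651 to 6.22.

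**Figure D1:**
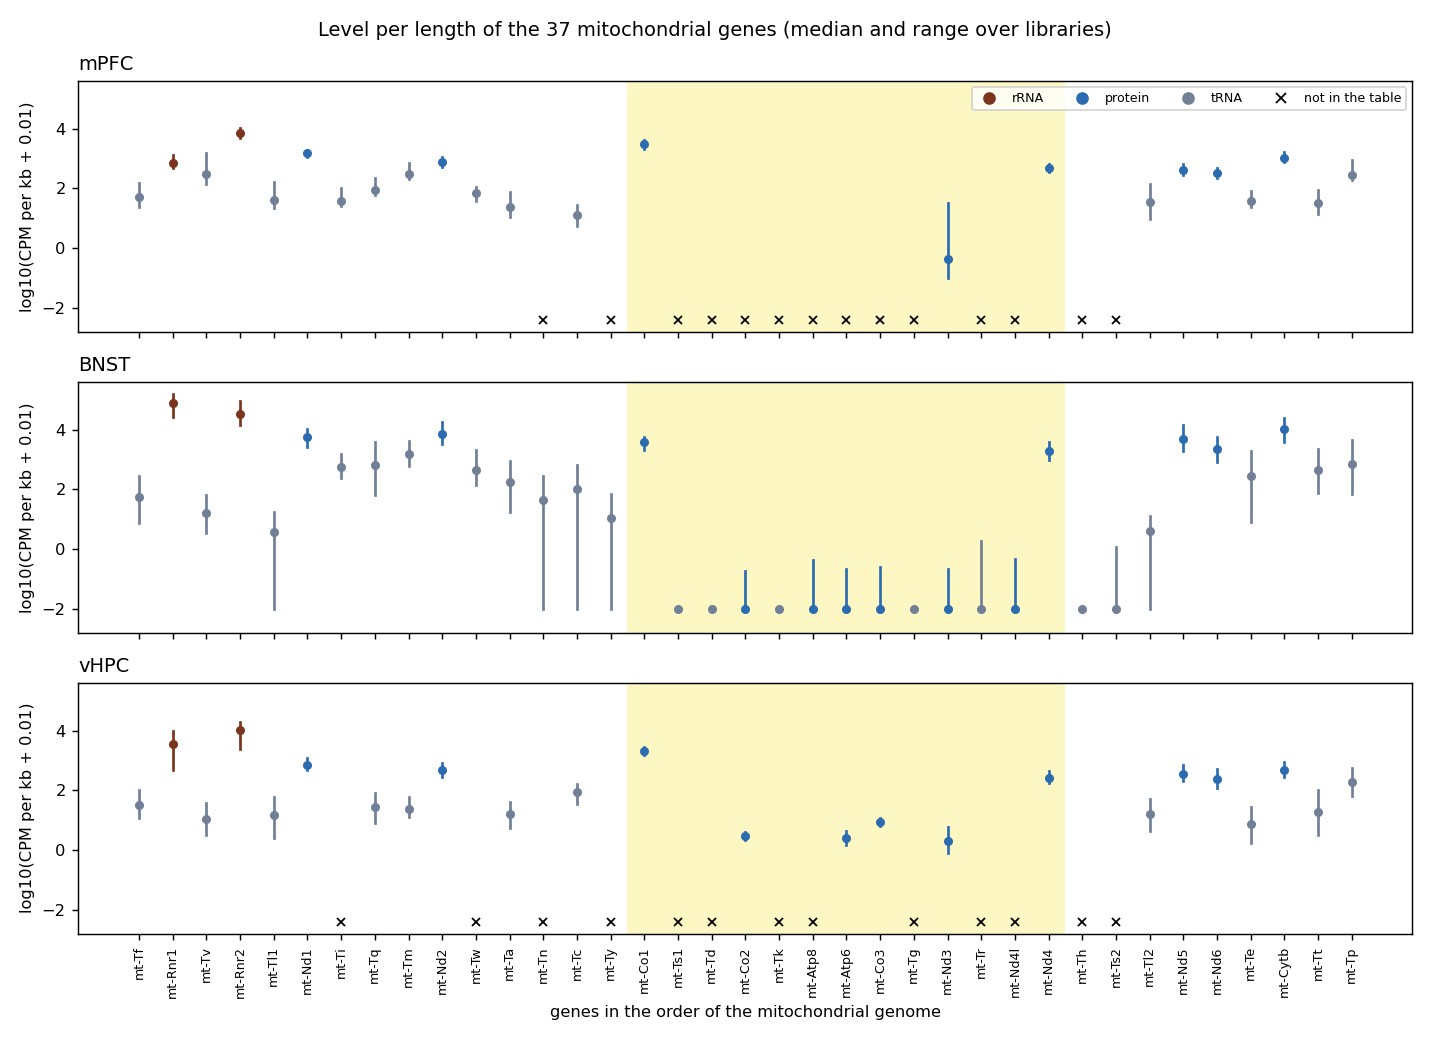
Median (point) and range (line) over libraries of log10(CPM per kb + 0.01) for the 37 mitochondrial genes in map order, in the mPFC (32 libraries), BNST (28) and vHPC (28); shading marks mt-Co1 to mt-Nd4, the genes that lie wholly or partly in the stretch repeated on chromosome 1, and crosses mark genes not in a table. The shaded genes other than mt-Co1 and mt-Nd4 sit at or near the floor of the BNST panel, while the rRNAs, mt-Rnr1 and mt-Rnr2, are at the top of that panel.

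tRNA genes, whose products are shorter than the reads, varied more between libraries than the protein genes outside the stretch, by their medians in each region. They were also at lower levels in each region. The median of their mean log2 CPM in the BNST was 3.31 (minus strand) and 0.99 (plus strand), against 12.49 for the protein genes. The part of the level in the spread was not tested. In the BNST, the standard deviation of log2 CPM over the 28 libraries had a median of 1.86 for the 7 tRNA genes on the minus strand and ranged from 1.46 to 2.56. It was 0.96 in the median for the 10 plus-strand tRNA genes outside the stretch, from 0.42 to 0.83 for the 7 protein genes and from 0.62 to 0.71 for the rRNAs. mt-Tp, the proline tRNA, ranged from 4.77 to 293 CPM there. For the mPFC these medians were 0.43 (minus strand), 0.61 (plus strand) and 0.27 (protein genes), and for the vHPC 0.78, 0.86 and 0.40. The rRNAs of the vHPC, at 0.83 and 1.21, varied as much as its tRNA genes, and mt-Nd3 in the mPFC had a standard deviation of 2.74. The minus-strand median was the higher of both strands in the BNST and the lower in the other regions.

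mt-Nd3 and its chromosome 1 copy exchanged places between mice in the mPFC. In B6 mice, mt-Nd3 had a lowest, median and highest log2 CPM of −0.56, 1.89 and 3.301 in controls, −2.36, 2.131 and 3.52 in resilient mice and −4.97, −3.37 and −2.94 in susceptible mice. Every susceptible B6 mouse was thus below every control and resilient B6 mouse. The copy Gm28438 had −1.95, −0.85 and 4.93 in controls, −0.79, 0.22 and 5.62 in resilient mice and 4.54, 4.85 and 6.36 in susceptible mice. In D2 mice, mt-Nd3 had −4.42, −2.30 and −1.43 in controls and −4.30, −4.03 and −3.40 in susceptible mice, and Gm28438 stood between 4.37 and 6.43. The D2 mice of both groups therefore resembled susceptible B6 mice in this pair.

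The pair followed the first part of the mouse identifier in B6 mice. The 9 B6 mice of the mPFC whose identifiers start with C1 or C2 had mt-Nd3 values between 1.23 and 3.52 and Gm28438 values between −1.95 and 0.62. The 9 mice with C5 or C7 had mt-Nd3 values between −4.97 and −0.56 and Gm28438 values between 4.44 and 6.36. Neither gene overlapped between these sets, and mt-Nd3 was the 1 of 23 mitochondrial genes of which this was true. The share of all mPFC genes without overlap was not counted, so how unusual such a separation is remains unknown. All 6 susceptible B6 mice were C5 or C7, against 1 of 6 controls and 2 of 6 resilient mice. Within the C5 and C7 mice, the control had the highest mt-Nd3 value (−0.56) and Gm28438 (4.93) within the range of the susceptible mice. The labels do not say what the identifiers stand for.

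Other genes with a large difference between these sets were looked for after the values were seen. Nnt, which codes for a mitochondrial transhydrogenase, was at 5.04 to 5.26 log2 CPM in C1 and C2 mice and at 5.63 to 5.93 in C5 and C7 mice. Gabra2, a GABA receptor subunit, was at 6.28 to 6.64 and 7.06 to 7.31. Wdfy1 was at 4.87 to 5.187 and 5.98 to 6.48. These nuclear genes separated the same mice as mt-Nd3. The methods name the Charles River substrains C57BL/6NCrl and DBA/2NCrl. Whether the B6 mice differ in substrain was not tested, and a table of counts does not show which base a mouse carries at a site.

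In the vHPC, where all 17 B6 mice had C1 or C2 identifiers, the strains differed in the same pair. mt-Nd3 minus Gm28438, as a difference of log2 CPM, ranged from −0.92 to 4.01 in B6 and from −7.91 to −4.05 in D2 mice. In the mPFC it was 1.69 to 5.25 in C1 and C2 mice, −9.86 to −5.49 in C5 and C7 mice and −10.76 to −6.36 in D2 mice. In the BNST, where B6 identifiers start with EC3 or EC4, every mouse was on the side of the copy. There mt-Nd3 had 1 read in each of 2 D2 control libraries and none in the other 26, while Gm28438 had 532 to 2923 reads per library.

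In all, 7 mice gave a library in both the mPFC and the vHPC, and in each the higher gene of the pair was the same in both regions. The 4 B6 mice, all C1 or C2, had mPFC mt-Nd3 values of 1.23, 2.63, 3.301 and 2.31, and their mt-Nd3 values in the vHPC were 1.05, 0.43, 0.995 and −0.54. In the 3 D2 mice the mPFC values of Gm28438 were 6.43, 6.17 and 6.13, against vHPC values of 6.78, 6.22 and 6.30. Their mt-Nd3 values in the vHPC, −0.76, 0.26 and −0.49, overlapped with those of the B6 mice. In the vHPC of B6 mouse C2.6, mt-Nd3 was above Gm28438 by only 0.44. The rRNA level was less alike within a mouse: resilient B6 mouse C2.6 had mt-Rnr1 at 9.86 log2 CPM in the mPFC and at 12.55 in the vHPC.

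**Figure D2:**
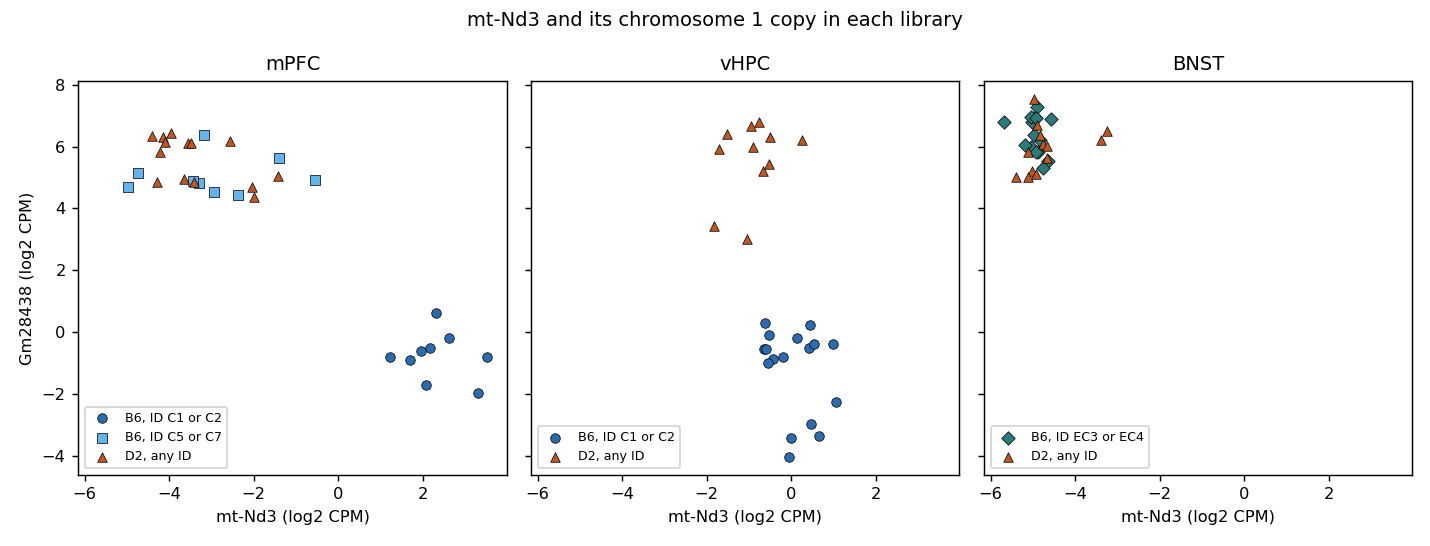
log2 CPM of mt-Nd3 (x axis) against its chromosome 1 copy Gm28438 (y axis), with a point for each library of the mPFC, vHPC and BNST, marked by strain and, in B6 mice, by the start of the mouse identifier; BNST values are computed from counts with a prior count of 0.5. In the mPFC, B6 mice with C1 or C2 identifiers lie at the lower right, and C5 or C7 mice and D2 mice lie at the upper left. In the vHPC the strains are apart in Gm28438 while their mt-Nd3 ranges overlap. All BNST mice lie at the upper left.

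The comparisons of the mPFC asked whether stress outcome went with mitochondrial expression. Genes were called differentially expressed at an adjusted p under 0.05 over all genes of a region. Susceptible against control B6 mice gave 1 called gene among the 23 (mt-Nd3, lower), beside 2.22% of all genes. Its log2 fold change was −5.41 ± 0.74 (SE, adjusted p = 0.00101 from limma), and that of Gm28438 was 5.23 (adjusted p = 0.00882 from limma). The median of mt-Nd3 over mPFC libraries was 0.43 CPM per kb, against 2991 for mt-Co1. How reads shared with its copy were counted is not known. In every mPFC comparison the mt-Nd3 values can therefore hardly measure the gene. With the start of the mouse identifier as a covariate, mt-Nd3 had −2.86 (adjusted p = 0.311 from limma) and Gm28438 had 0.39 (adjusted p = 0.928 from limma). Only 1 control shared its identifier start, C7, with susceptible mice, so identifier and group can hardly be told apart here. The 7 protein genes outside the stretch ranged from −0.40 to −0.20, with mt-Rnr1 at −0.17 and mt-Rnr2 at −0.11, and none of them passed. The median over all 23 was −0.12, beside 0.00 over all genes. All 5 oligodendrocyte markers were lower in the same comparison (median −0.76, sums of 1445 to 2755 CPM in controls and 1041 to 1591 CPM in susceptible mice), and their part in the mitochondrial values was not tested.

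Susceptible against resilient B6 mice gave 1 called gene, again mt-Nd3 (−4.87 ± 0.74, SE, adjusted p = 0.00562 from limma), beside 2.02% of all genes. mt-Nd3 did not pass there with the identifier as a covariate (−3.21, adjusted p = 0.511 from limma) or with only the compared groups fitted (adjusted p = 0.0709 from limma). Susceptible and resilient mice shared only the identifier start C5, so identifier and group can hardly be told apart in this comparison either. Leaving out B6 resilient replicate 5 or B6 susceptible replicate 1 raised the number of called genes to 3, all lower. The median over the 23 genes was −0.30. Limma called 0 of 23 in resilient against control B6 mice, where 2 had an unadjusted p under 0.05 and 0% of all genes were called. In susceptible against control D2 mice limma also called 0 of 23, with 0 at an unadjusted p under 0.05 and 0% of all genes called. The strain by susceptibility interaction gave 0 of 23 by limma (1 at an unadjusted p under 0.05, 0% of all genes), with 4.167 for mt-Nd3 (adjusted p = 0.315 from limma).

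Strains were also compared at baseline in the mPFC. D2 against B6 controls gave 6 called genes of 23, beside 27.8% of all genes, so their share was close to the background. Of 13 tRNA genes 2 were higher, mt-Ta (alanine, 0.94 ± 0.31 SE, adjusted p = 0.0237 from limma) and mt-Tt (threonine, 0.90), and 12 of 13 had a log2 fold change above 0. mt-Ta had a lowest, median and highest value of −0.38, 0.27 and 1.32 log2 CPM in B6 and 0.64, 1.116 and 2.36 in D2 controls, which overlap. Log2 fold changes of protein genes and rRNAs were all below 0, of which mt-Nd3 (−4.32, adjusted p = 4.67e-05 from limma), mt-Cytb (−0.38), mt-Co1 (−0.33) and mt-Rnr2 (−0.30, adjusted p = 0.0332) passed. The number fell to 2 without B6 control replicate 3 or D2 control replicate 1 and to 3 without B6 control replicate 6 or D2 control replicate 4. All 5 oligodendrocyte markers were lower in D2 controls as well (median −0.90), and their part was not tested.

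For mt-Rnr1 and mt-Nd6 each mPFC group overlapped with every other. mt-Rnr1 had a lowest, median and highest log2 CPM of 9.39, 9.66 and 9.93 in control, 9.46, 9.83 and 10.29 in resilient and 9.33, 9.45 and 9.83 in susceptible B6 mice. D2 controls had 9.04, 9.39 and 9.61 and susceptible D2 mice 8.90, 9.30 and 9.58. mt-Rnr2 stayed between 12.96 and 14.03 over all 32 libraries, and the only groups without overlap were resilient B6 mice (13.54 and above) and susceptible D2 mice (13.47 and below), which were not compared by a test. mt-Nd6 ranged from 6.85 to 7.95, with group medians of 7.699, 7.53 and 7.41 in control, resilient and susceptible B6 mice and 7.32 and 7.37 in control and susceptible D2 mice.

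In the BNST the mean mitochondrial share of counts was higher in susceptible than in control B6 mice and lower in susceptible than in control D2 mice. B6 controls had 8.64%, 15.6%, 19.1%, 24.6% and 14.4%, resilient B6 mice 14.8%, 23.6%, 25.2%, 17.6% and 21.5%, and susceptible B6 mice 21.3%, 21.8%, 31.9%, 23.9% and 28.2%. D2 controls had 23.3%, 30.8%, 14.0%, 19.0% and 11.1%, resilient D2 mice 8.69%, 15.1% and 20.1%, and susceptible D2 mice 10.89%, 7.52%, 11.9%, 6.72% and 7.48%. Susceptible B6 mice lay in the upper part of the B6 range and overlapped with 1 control, and susceptible D2 mice lay at the bottom of the D2 range and overlapped with 1 control. The means were 16.5% ± 5.90 (SD, n = 5), 20.5% ± 4.28 (SD, n = 5) and 25.4% ± 4.52 (SD, n = 5) for control, resilient and susceptible animals of strain B6, and 19.7% ± 7.81 (SD, n = 5), 14.6% ± 5.72 (SD, n = 3) and 8.91% ± 2.34 (SD, n = 5) in the D2 groups. The TMM factors of edgeR had group means from 0.868 (B6 susceptible) to 1.21 (D2 susceptible). After scaling by them, the same means were 16.9% ± 8.64 (SD), 22.9% ± 6.90, 30.5% ± 11.0, 21.3% ± 11.3, 13.9% ± 6.59 and 7.48% ± 2.44. The susceptible means were then further from those of their controls, but the SD of every group was larger too. Control and susceptible mice still overlapped in both strains. Among the susceptible D2 libraries, 4 were sequenced in a single set (6.72% to 10.89%) and the other in 2 sets (11.9%), as were all remaining BNST libraries, so this property and the group cannot be told apart.

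**Figure D3:**
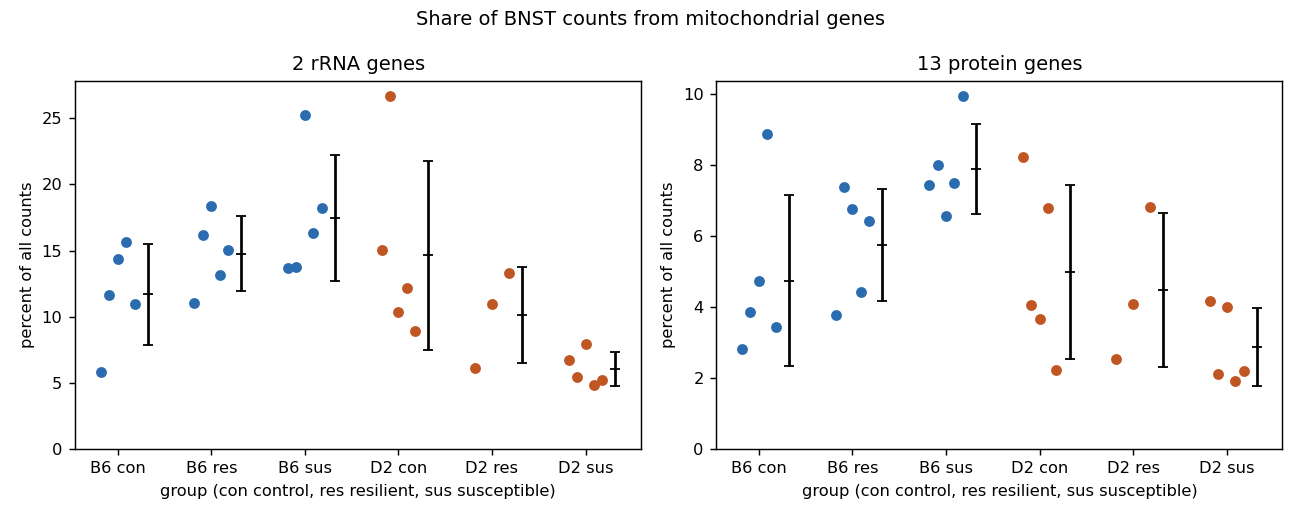
Percent of all counts of a BNST library that fell on the 2 mitochondrial rRNA genes (left) and the 13 mitochondrial protein genes (right); each point is a mouse, and the bars give the mean and SD of the group. Susceptible B6 mice reached 25.3% rRNA and 9.94% protein-gene counts, and all 5 susceptible D2 mice had under 8% rRNA counts.

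Both rRNAs, which made up most of the share, followed this pattern. The part of the rRNA cleavage in their levels was not tested. mt-Rnr1 was at 30449.8, 64418, 80352, 92247 and 61537 CPM in B6 controls, at 61126, 95632, 104594, 76982 and 84934 CPM in resilient and at 80759.6, 78804, 147729.9, 98064 and 106886 CPM in susceptible B6 mice. mt-Rnr1 in D2 mice was at 83633, 123952, 57318, 72661 and 43919.5 CPM in controls, at 31220.5, 61229.6 and 79636 CPM in resilient and at 36982, 27241, 44697, 24822 and 27501 CPM in susceptible mice. Only 1 susceptible D2 mouse was above the lowest D2 control. mt-Rnr2 was at 27645 to 64351 CPM in control, 49039 to 79234 CPM in resilient and 55965 to 104977 CPM in susceptible B6 mice. mt-Rnr2 in D2 mice was at 66625, 143304, 45949.5, 48841 and 45121 CPM in controls, at 30071, 48628 and 53257 CPM in resilient mice and at 30024, 26730.0, 34699, 23128 and 24907 CPM in susceptible mice. In this gene no susceptible D2 mouse overlapped with a control, in a comparison in which edgeR called 0% of all genes.

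mt-Nd6 behaved alike in the BNST. It was at 645, 1008, 1062, 2482 and 866 CPM in B6 controls, at 798, 1639.6, 2435, 1182 and 2103 CPM in resilient and at 1882, 2274, 1413, 1922 and 2772 CPM in susceptible B6 mice. D2 mice had mt-Nd6 at 2881, 1659, 1121, 1839 and 871 CPM in controls, at 749.6, 1451 and 1164 CPM in resilient and at 916, 484, 1064, 442 and 682 CPM in susceptible mice. Control and susceptible mice overlapped in both strains.

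edgeR called none of these genes in the comparisons with controls of the same strain. Of the 37 members, 22 had at least 1 CPM in at least 6 BNST libraries and were tested. In susceptible against control B6 mice all 22 had a log2 fold change above 0, from 0.72 for mt-Co1 to 1.25, with a median of 1.004 beside 0.01 over all genes. edgeR called 0 of 22 (9 at an unadjusted p under 0.05, 0% of all genes called) and DESeq2 also called 0 (11 at an unadjusted p under 0.05). mt-Rnr1 had 0.89 ± 0.40 (SE, adjusted p = 0.746 from edgeR) and mt-Nd6 0.89 ± 0.43 (SE, adjusted p = 0.773 from edgeR). By class, the medians were 0.83 for the rRNAs, 0.89 for the protein genes and 1.15 for the tRNAs, and no test compared the classes.

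In susceptible against control D2 mice all 22 were below 0, from −1.72 for mt-Rnr2 to −0.60, with a median of −1.11 beside −0.04 over all genes. edgeR called 0 of 22 (12 at an unadjusted p under 0.05, 0% of all genes called), while DESeq2 called 2 of 22, mt-Rnr1 and mt-Rnr2, beside 0.0685% of all genes. mt-Rnr1 had −1.61 ± 0.40 (SE, adjusted p = 0.518 from edgeR), mt-Rnr2 −1.72 ± 0.39 (SE, adjusted p = 0.411 from edgeR) and mt-Nd6 −1.57 ± 0.43 (SE, adjusted p = 0.537 from edgeR).

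The difference between the strains in this response was tested as an interaction. All 22 genes had a negative interaction term, meaning a lower log2 fold change in D2, from −2.75 to −1.52 with a median of −2.19 beside −0.04 over all genes. edgeR called 0 of 22 (16 at an unadjusted p under 0.05, 0% of all genes called), with the lowest adjusted p of 0.0708 for mt-Rnr1 (−2.50 ± 0.57, SE), mt-Rnr2 (−2.48 ± 0.55) and the methionine tRNA gene mt-Tm (−2.55 ± 0.57). mt-Nd6 had −2.46 ± 0.61 (SE, adjusted p = 0.0913 from edgeR). The result was near the threshold: DESeq2 called 9 of 22, all lower, beside 1.27% of all genes. Without TMM scaling, edgeR also called 9 (8.07% of all genes) and the median of all genes moved from −0.04 to 0.53. edgeR called 5 with the identifier as a covariate (0.457% of all genes), 11 without B6 control replicate 4 and 7 without D2 control replicate 5. The comparisons share no control mice.

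The medians of the oligodendrocyte markers had the same signs in the BNST, and none of the 5 was called by edgeR in these comparisons. Their median log2 fold change was 0.72 for B6 and −0.89 for D2 (susceptible against control) and −1.62 for the interaction. Their summed levels ranged from 2867 to 7853 CPM in control and 4431 to 9332 CPM in susceptible B6 mice, and from 2825 to 9929 CPM in control and 2141 to 7232 CPM in susceptible D2 mice. All 5 markers were detected in each group, and their part in the mitochondrial values was not tested.

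**Figure D4:**
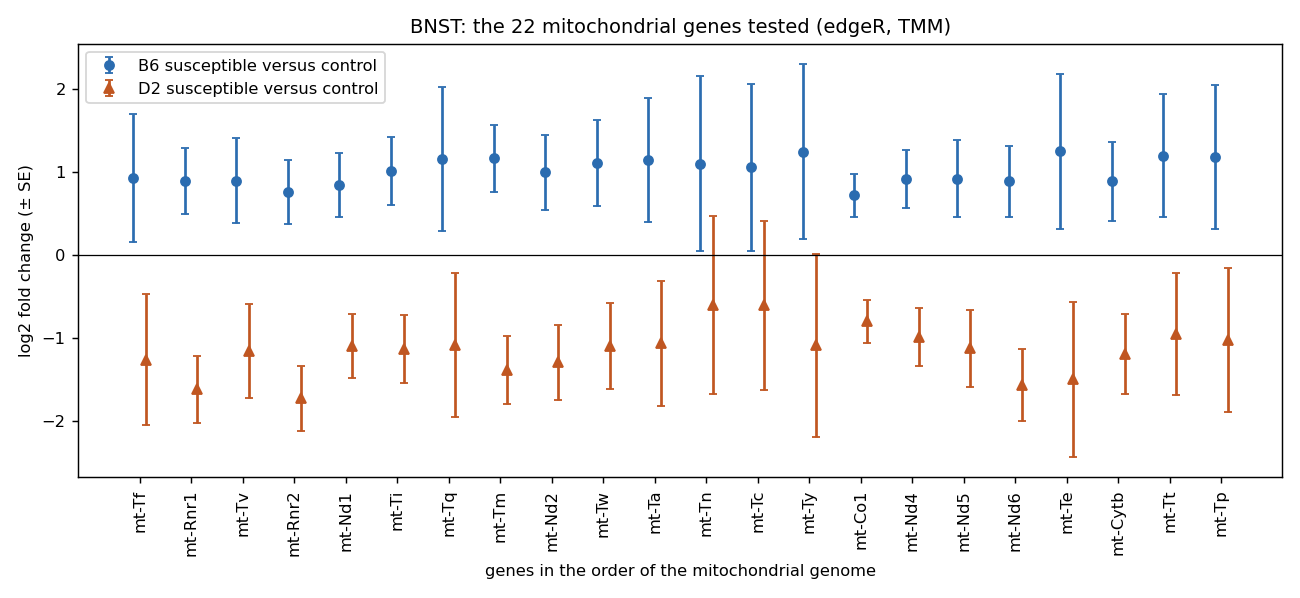
log2 fold change (point) with its standard error (line) from edgeR with TMM scaling for the 22 mitochondrial genes tested in the BNST, in map order, for susceptible against control mice in each strain. All 22 points are above 0 in B6 and below 0 in D2, with values from 0.72 to 1.25 and from −1.72 to −0.60, and edgeR called none.

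In the BNST, resilient mice were compared with controls and with susceptible mice. In resilient against control B6 mice the rRNAs had a median of 0.46 and the 7 protein genes one of 0.38, all above 0, while the 13 tRNA genes had one of −0.68. edgeR called 0 of 22 (0 at an unadjusted p under 0.05, 0% of all genes) and DESeq2 called 0. In resilient against control D2 mice all 22 were below 0, with medians of −0.75, −0.29 and −1.52 in the same order, and edgeR called 0 (1 at an unadjusted p under 0.05, 0% of all genes), as did DESeq2. Susceptible against resilient B6 mice had all 22 above 0, with medians of 0.37 for the rRNAs, 0.51 for the protein genes and 1.798 for the tRNA genes. edgeR called 0 of 22 there (10 at an unadjusted p under 0.05, all of them tRNA genes, beside 0.00571% of all genes), and so did DESeq2. D2 against B6 controls had a median of 0.36 with 0 of 22 called by edgeR (0 at an unadjusted p under 0.05, 2.51% of all genes called) or by DESeq2.

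In the vHPC the counts of the rRNAs fell into distinct levels. This RNA had been depleted of rRNA before sequencing. The rRNA content of the tissue and the depletion cannot be told apart, and the part of the depletion was not tested. mt-Rnr1 had a lowest, median and highest log2 CPM of 10.27, 10.40 and 10.698 in B6 controls and of 8.84, 9.47 and 12.55 in resilient B6 mice. Of the 8 resilient mice, 5 lay at or below 9.64, under every control, and the other 3 lay above every control, with nothing between. Susceptible B6 mice had mt-Rnr1 at 12.04, 13.23 and 12.41. mt-Rnr1 in D2 mice was at 11.21, 11.69 and 11.96 in controls and at 11.92, 12.61, 12.15, 11.81 and 12.02 in susceptible mice. mt-Rnr2 followed: 13.13, 13.25 and 13.63 in B6 controls, 11.88, 12.41 and 14.55 in resilient mice, and 14.33, 14.89 and 14.50 in the susceptible mice. For summed rRNA, 3 of 8 resilient, 3 of 3 susceptible B6, 6 of 6 control D2 and 5 of 5 susceptible D2 mice were above the highest B6 control.

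The protein genes spanned a narrower range. Their summed log2 CPM had a range of 12.1 to 13.2 over all 28 vHPC libraries, and the 3 resilient mice with high rRNA were at 12.76, 12.67 and 12.80, just above the other 5 resilient mice, which lay between 12.16 and 12.66. Within library set 2 the summed rRNA was 12.4, 12.6 and 14.9 log2 CPM in 3 resilient B6 mice. Within library set 1 it was 12.6 and 12.5 in 2 resilient mice and 15.3 in the susceptible mouse. The authors had already adjusted these values for library and sequencing sets, and the part of the sets was not tested. No B6 control shared a library set with a susceptible or resilient B6 mouse. The 3 high resilient mice came from library sets 2, 3 and 7, and from sequencing sets 2, 2 and 1 in the same order. The other 5 resilient mice were all in sequencing set 2, and all B6 controls were in sequencing set 1.

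**Figure D5:**
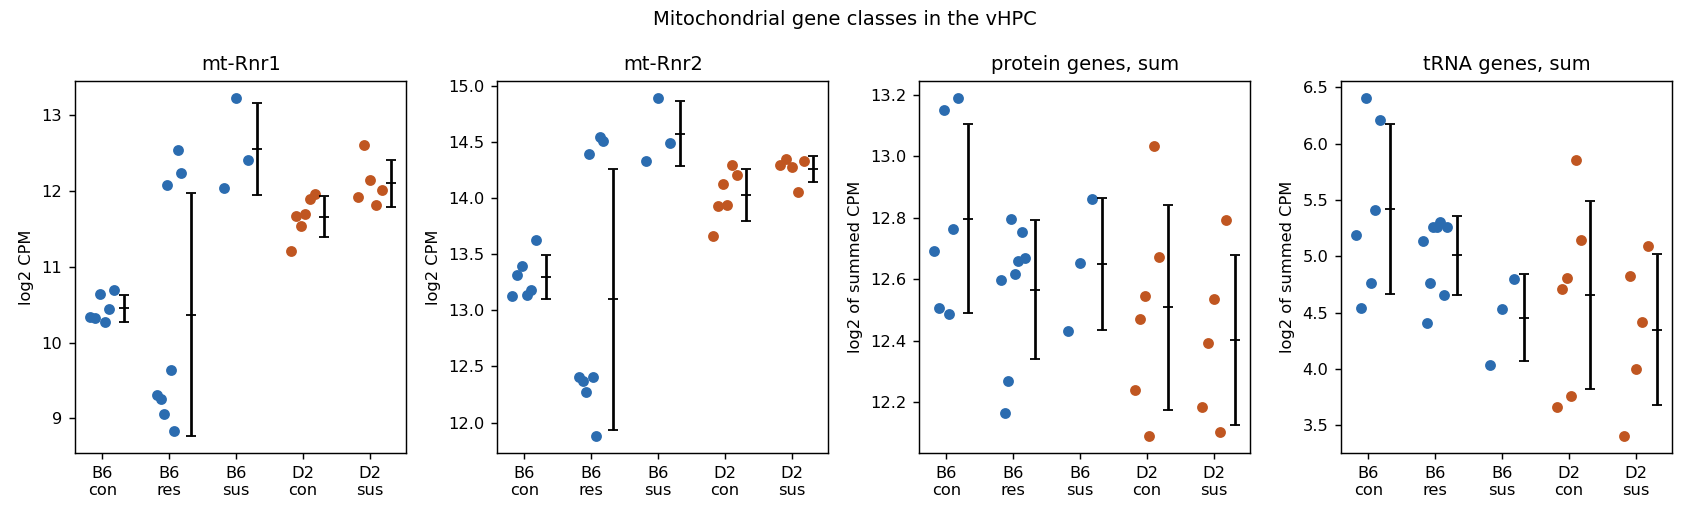
log2 CPM of mt-Rnr1 and mt-Rnr2 and log2 of the summed CPM of the mitochondrial protein and tRNA genes in the vHPC; each point is a mouse, bars give the mean and SD of the group, and the vertical axes do not start at 0. Resilient B6 mice fall into a low set of 5 and a high set of 3 for the rRNAs, with a gap from 9.64 to 12.08 for mt-Rnr1, while the protein sums of all 8 lie between 12.16 and 12.80.

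Susceptible against control B6 mice in the vHPC gave 9 called genes of 24, beside 40.6% of all genes, so the mitochondrial share was not above the background. The rRNAs were higher, with 2.105 ± 0.63 for mt-Rnr1 (SE, adjusted p = 0.00996 from limma) and 1.28 ± 0.45 for mt-Rnr2 (SE, adjusted p = 0.0261 from limma). mt-Atp6, a subunit of ATP synthase, had 0.54 ± 0.19 (SE). The lower genes were the tRNA genes mt-Tt (−1.89 ± 0.56, SE, adjusted p = 0.0092 from limma), mt-Tl1 (−1.51), mt-Tq (−1.38) and mt-Tc (−0.81) and the protein genes mt-Nd3 (−1.13 ± 0.35, SE, adjusted p = 0.0118 from limma) and mt-Co3 (−0.48). mt-Tt, the threonine tRNA gene, had a lowest, median and highest value of 0.52, 1.48 and 2.82 in controls and reached at most 0.21 in susceptible mice, with no overlap. mt-Nd3 was at −0.05, 0.56 and 1.05 in controls and at −0.61, −0.64 and −0.59 in susceptible mice, also without overlap. None of the 7 protein genes reaching outside the chromosome 1 stretch was called in this or another vHPC comparison. The called protein genes mt-Atp6, mt-Co3 and mt-Nd3 all lie wholly inside it. Their medians over vHPC libraries were 2.57, 8.71 and 2.02 CPM per kb, against 2137 for mt-Co1. How reads shared with the copies were counted is not known, so these values can hardly measure the genes.

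The library set is a batch of libraries prepared together, for which the deposited vHPC values had already been adjusted by the authors. Since no B6 control shared a set with a susceptible B6 mouse, set and group can hardly be told apart here. With the library set as a covariate, 0 of 24 mitochondrial genes passed in limma, with 2.31 for mt-Rnr1 (adjusted p = 0.608 from limma) and −1.38 for mt-Nd3 (adjusted p = 0.565 from limma). Leaving out B6 susceptible replicate 2 left 4 called genes, all lower, and leaving out B6 susceptible replicate 1 left 5. Cell type markers moved too: all 5 oligodendrocyte and all 4 ependymal markers were lower in susceptible mice (medians −0.61 and −0.97), and 4 of 5 cortical markers were higher. Choroid plexus markers summed to 38.8 to 2112 CPM in controls and 24.4 to 80.1 CPM in susceptible mice. The part of the markers in these differences was not tested.

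Susceptible against resilient B6 mice gave 4 called genes of 24, beside 27.6% of all genes. mt-Rnr1 (2.19 ± 0.60, SE, adjusted p = 0.0124 from limma), mt-Rnr2 (1.48 ± 0.43) and mt-Atp6 (0.66 ± 0.18) were higher and mt-Co3 (−0.29 ± 0.10) was lower. Oligodendrocyte markers summed to 1765 to 2027 CPM in susceptible and 2190.1 to 3317 CPM in resilient mice and endothelial markers to 211 to 233 and 248 to 299 CPM, without overlap, and their part was not tested. The susceptible mt-Rnr1 values of 12.04 to 13.23 overlapped with the 3 high resilient mice. Without B6 susceptible replicate 2, or with the library set as a covariate, 0 genes passed. Resilient against control B6 mice gave 0 of 24 by limma (3 at an unadjusted p under 0.05, 10.84% of all genes), susceptible against control D2 mice 0 (1 at an unadjusted p under 0.05, 4.28%) and the strain by susceptibility interaction 0 (0 at an unadjusted p under 0.05, 0.782%). With only its 4 groups fitted, the interaction called mt-Rnr1 (−1.67) and mt-Rnr2 (−1.04). The sequencing set nearly followed the group in resilient B6 and susceptible D2 mice against controls. All B6 controls were in set 1 and all resilient B6 mice but C2.18 in set 2. All D2 controls but D4.8 were in set 1 and all susceptible D2 mice but D5.8 in set 2. Sequencing set and group can hardly be told apart in these comparisons.

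D2 against B6 controls in the vHPC gave 9 called genes of 24, beside 59.3% of all genes. mt-Rnr1 (1.21 ± 0.51, SE, adjusted p = 0.0452 from limma) and mt-Atp6 (0.62 ± 0.16) were higher in D2 mice. Lower were mt-Tt (−2.06 ± 0.45, SE, adjusted p = 0.000396 from limma), 4 further tRNA genes (mt-Tl1, mt-Te, mt-Tq and mt-Tc, from −1.87 to −0.72), mt-Nd3 (−1.30) and mt-Co3 (−0.42). All 11 tRNA genes had a negative log2 fold change, the opposite sign to 12 of 13 in the same strain comparison of the mPFC. mt-Rnr1 lost its call in 11 of 12 fits that left out 1 control mouse, and 14 genes were called without D2 control replicate 5. With the library set as a covariate 0 passed. No B6 control shared a library set with a D2 control, so set and strain can hardly be told apart here. All 5 oligodendrocyte, 5 endothelial, 5 choroid plexus and 4 ependymal markers were lower in D2 controls. Oligodendrocyte markers summed to 2973 to 3378 CPM in B6 and 1198 to 1872 CPM in D2 controls, endothelial markers to 272 to 304 and 186 to 202 CPM and ependymal markers to 13.2 to 18.3 and 5.499 to 9.63 CPM, without overlap, and their part was not tested. The copies Gm28438 (7.61, adjusted p = 1.91e-12 from limma) and Gm10222, the copy of mt-Nd4l (2.81, adjusted p = 1.38e-06 from limma), were higher in D2 mice.

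mt-Nd6 did not pass in a vHPC comparison. It had a lowest, median and highest log2 CPM of 6.71, 7.26 and 8.02 in control and 6.03, 6.99 and 7.32 in resilient B6 mice, 6.60, 7.143 and 7.32 in the susceptible B6 mice, and 5.94, 6.75 and 7.69 in control D2 mice. Susceptible D2 mice had 5.96, 6.74, 6.61, 6.19 and 7.08. The log2 fold change of mt-Nd6 in D2 against B6 controls was −0.59 ± 0.28 (SE, adjusted p = 0.0728 from limma), and it passed without B6 control replicate 2 or 4 or D2 control replicate 5.

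Nuclear genes that copy, transcribe or process mitochondrial nucleic acids were counted beside the mitochondrial genes. The list held polymerases, processing nucleases, rRNA and tRNA modifying enzymes and RNA-binding proteins, of which 49 were tested in the mPFC and vHPC and 48 in the BNST. edgeR called 0 of 48 in each BNST comparison, with 1 to 6 at an unadjusted p under 0.05. In the mPFC, limma called 1 gene, lower, in susceptible against resilient B6 mice: Trnt1, which adds the CCA end to tRNAs (−0.16, adjusted p = 0.0367). Between control D2 and B6 mice 4 were higher and 7 lower of 49, a share not above the 27.8% of all genes, among them Mrm1, an rRNA methyltransferase (0.53), Fastk (0.35) and Mgme1, a mitochondrial exonuclease (−0.34). The other mPFC comparisons called 0 by limma, with 1 to 10 at an unadjusted p under 0.05.

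More of this list passed in the vHPC, at shares near those of all genes (40.6% for susceptible against control B6 mice, 27.6% against resilient mice, 59.3% between control strains, 10.84% for resilient B6 and 4.28% for susceptible D2 mice against controls). Susceptible against control B6 mice had 7 higher and 12 lower genes, including the helicase gene Twnk (0.52 ± 0.10, SE, adjusted p = 0.00033 from limma), Fastk (0.33) and Lrpprc, which stabilises mitochondrial mRNAs (−0.28 ± 0.06, SE, adjusted p = 0.000848 from limma). Susceptible against resilient B6 mice had 2 higher and 7 lower, including the elongation factor Tefm (−0.41) and Hsd17b10, a subunit of the enzyme that trims tRNA 5′ ends (−0.35). Control D2 against B6 mice had 15 higher and 13 lower, with Fastk (0.69) and the topoisomerase gene Top1mt (0.46) higher and Lrpprc (−0.50) lower. Resilient against control B6 mice had 3 higher and 2 lower, and susceptible against control D2 mice 2 higher and 1 lower, while limma called 0 in the interaction (9 at an unadjusted p under 0.05). Fastk, a regulator of mitochondrial RNA, was higher in each of these vHPC comparisons with control B6 or D2 mice, with 0.26 in resilient B6 and 0.18 in susceptible D2 mice, and the B6 comparisons share control mice.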

How the data were processed

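Libraries of total RNA from the mPFC, BNST and vHPC were sequenced per mouse. Per the study's methods, the authors trimmed reads, removed duplicates, aligned them to GRCm38 with STAR and counted exons with HTSeq. The authors deposited raw counts for the BNST and, for the mPFC and vHPC, log2 CPM after a filter on low values, voom and ComBat adjustment for library sets (in the vHPC also for sequencing sets). Strand and multi-mapping settings are not given in the sources used here.

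Gene symbols, coordinates and sequences were taken from the GENCODE M21 annotation of GRCm38, which named 99.1% to 99.6% of identifiers. Copies of mitochondrial genes were annotated genes within 10 kb of Gm28438 matching a member over at least 100 bases at 95% identity or more. Elsewhere, Gm13339, Gm13340 and Gm13341 on chromosome 2 and Gm4076 on chromosome 13 also matched members at these limits and were not examined. CPM were computed from all counts of a library. Library sets, sequencing sets and mouse identifiers came from the study's sample list and the labels.

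BNST counts were tested with edgeR 4.0.16 (TMM, robust quasi-likelihood), with standard errors derived from its F statistic, on genes that reached 1 CPM in 6 or more libraries. Deposited log2 values were tested with robust limma 3.58.1 in R 4.3.3. Each region had 1 fit with a mean per group, two-sided p-values were Benjamini-Hochberg adjusted over all genes tested at a threshold of 0.05, and the steps were tested on simulated data. DESeq2 1.42.0, other scalings, filters, covariates, subsets of groups and omission of each mouse were alternatives. Named in full were mt-Rnr1, mt-Rnr2, mt-Nd3, mt-Nd6 and the members with the highest and lowest fold change called in a comparison. Members and lists were chosen with earlier results of these data known. Nnt, Gabra2 and Wdfy1 were chosen after their values were seen. Class sums and shares were described without a test.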

Additional observations from a re-analysis of the deposited data

Results flagged for a closer look

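Groups of 4 to 10 mice were examined for a single mouse far from the rest by Dixon's criterion, and 5 of 98 groups held one, about the 1 in 20 that chance gives. In B6 controls of the mPFC, 1 mouse had Gm28438 at 4.93 log2 CPM while the next highest was at −0.50. This is the C7 mouse, which is also the control with the lowest mt-Nd3. In susceptible B6 mice of the mPFC the highest Gm28438 value was 6.36 and the next 5.13. The summed tRNA genes of the mPFC had a highest log2 value of 7.08 in B6 controls, with the next at 6.49, and of 7.63 in resilient B6 mice, with the next at 6.74. In susceptible D2 mice of the vHPC the lowest mt-Rnr2 value was 14.05, under 14.28 in the next mouse.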

How the results depend on the processing

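No paired analysis was possible because the replicate numbers follow accession order and, within a region, each mouse belongs to 1 group. The 7 mice with libraries of both regions pair no groups that were compared. In the mPFC, mt-Nd3 was the only call in B6 susceptible against control mice and 0 genes passed with the identifier as a covariate, or with a mean log2 CPM of at least 1, a filter that removes mt-Nd3 (mean −1.66) before the test. Susceptible against resilient B6 mice gave 0 with the identifier or with only the compared groups fitted, and D2 against B6 controls and the interaction gave 1 each with only the compared groups. In the BNST, DESeq2 gave 2 in D2 susceptible against control mice, and the interaction gave 9 without TMM, 9 with DESeq2 and 5 with the identifier. In the vHPC, the mean filter left 4 in B6 susceptible against control mice and 3 in D2 against B6 controls, the library set left 0 in these and in susceptible against resilient B6 mice, and fitting only the compared groups gave 1 in the last and 2 in the interaction. Leaving out 1 mouse gave 0 to 11 calls in the BNST interaction, 1 to 3 in mPFC susceptible against resilient B6 mice, 2 to 7 in mPFC D2 against B6 controls, and in the vHPC 4 to 10 (B6 susceptible against control), 0 to 5 (against resilient) and 8 to 14 (D2 against B6). Where calls were lost or gained, the cause was not tested.

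Some log2 fold changes changed sign. With the identifier as a covariate, mt-Nd3 in mPFC resilient against control B6 mice became 0.36, mt-Nd6 in mPFC D2 susceptible against control mice 0.025, mt-Rnr2 in the mPFC interaction 0.20 and mt-Nd6 in the vHPC interaction −0.16. With the sequencing set, vHPC resilient against control B6 mice gave 0.17 for mt-Rnr1, 0.11 for mt-Rnr2 and 0.0006605 for mt-Nd6, susceptible against resilient gave −0.13 for mt-Nd6, and D2 susceptible against control gave 0.11 for mt-Nd6. With the library set, the latter gave 0.47 for mt-Nd6 and 0.37 for mt-Nd3. Leaving out 1 mouse, the values ranged from −1.03 to 0.15 (mt-Nd3, mPFC B6 resilient against control), −0.0862 to 0.10 (mt-Nd6, mPFC D2 susceptible against control), −0.13 to 0.27 (mt-Nd6, vHPC interaction), −0.04999 to 0.56 (mt-Rnr1) and −0.002311 to 0.77 (mt-Rnr2) in BNST D2 against B6 controls, −0.39 to 0.14 (mt-Rnr1, vHPC B6 resilient against control), −0.0025 to 0.46 (mt-Rnr2, BNST B6 susceptible against resilient) and −0.0883 to 0.0569 (mt-Rnr2, mPFC interaction).

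Among the remaining values under all alternatives, 1226 kept their direction and side of the threshold, 37 lost and 23 gained a call. With the rRNA genes left out of all counts, the BNST shares were 5.49%, 6.82% and 9.65% in control, resilient and susceptible B6 and 5.94%, 5.07% and 3.09% in D2 mice. All 6 shares moved by more than the SD of their group. The identifier could not be separated from strain, nor from the resilient D2 group of the BNST. In the BNST, genes inside the chromosome 1 stretch have too few reads to show a difference.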
